A study of Mus musculus with 2 samples.

Results

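The genes described here encode the BTB zinc finger transcription factors, and the measurement is an Arid1b chromatin immunoprecipitation with sequencing (ChIP-seq) in mouse dental mesenchyme cells. Members were taken by name: every protein-coding gene whose symbol, in a RefSeq gene table of the mm10 assembly (GRCm38.p6), is Zbtb with a number after it, plus Bcl6 and Bcl6b. This gave 43 of 21887 protein-coding genes, on 15 chromosomes. For each, the deposited peaks were collected in 2 ranges, within 1 kb of either outer end (boundary peaks) and anywhere from 10 kb before the gene to 10 kb after it. The family was selected on its share of genes with such peaks, so those counts and folds are the values that chose it. Zbtb8os met the symbol rule but encodes a factor of the tRNA ligase complex and not a BTB zinc finger protein. The counts for the 2 ranges are also given without it, and all other values of the family include it.

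An Arid1b ChIP library (antibody from Cell Signaling) and a library of input chromatin, prepared with no antibody, were made from primary dental mesenchyme cells. Wild-type mice of the C57BL/6 strain gave the cells, which were taken from the apical end of the first lower molars between postnatal days 3.5 and 7.5 and cultured in medium with 10% serum. Neither library carries an Arid1a deletion, although the series title and design concern Arid1a, and the labels do not say whether mice were pooled. Each group is a single library without replicates, so nothing was tested and all values describe these libraries only. A peak list holds no expression values, so the cell type label could be set only against peaks at marker genes: 8 of 10 dental mesenchyme markers had a boundary peak (22.2% of all protein-coding genes) and 9 of 10 a peak within 1 kb of an annotated start (23.9%). Prrx1 had 6 peaks within 10 kb but none at its outer ends, and Lhx6 had none within 10 kb.

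BTB zinc finger proteins join an amino-terminal BTB domain, through which they pair and recruit corepressors, to carboxy-terminal C2H2 zinc fingers that bind DNA. Bcl6, for example, represses genes in germinal centre B cells by recruiting corepressors such as those encoded by Ncor1 and Bcor. Several relatives set lymphocyte fates, others read methylated DNA, and Zbtb16 takes part in limb and axial skeletal patterning. Arid1b, the precipitated protein, is an ARID-domain subunit of BAF, a class of SWI/SNF complexes, which move nucleosomes at promoters and enhancers.

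The start regions of 6 members are shown first, because the presence of a peak at a start went with base composition and with the GC box, the GGGCGG element known as a binding site of Sp and Klf factors. Each line holds the 250 bases before an annotated start, 5′ to 3′ on the gene's strand, from the RefSeq promoter table of GRCm38.p6. Capitals mark GGGCGG or its reverse complement CCGCCC, and overlapping matches run together. The first 4 genes had a peak at this start and the last 2 had no peak within 10 kb of the gene.
Bcl6: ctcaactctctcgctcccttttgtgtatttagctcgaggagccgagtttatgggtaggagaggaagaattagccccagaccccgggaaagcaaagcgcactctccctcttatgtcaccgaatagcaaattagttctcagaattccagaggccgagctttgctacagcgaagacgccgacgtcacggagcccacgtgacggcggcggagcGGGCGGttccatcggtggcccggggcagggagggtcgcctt
Zbtb7a: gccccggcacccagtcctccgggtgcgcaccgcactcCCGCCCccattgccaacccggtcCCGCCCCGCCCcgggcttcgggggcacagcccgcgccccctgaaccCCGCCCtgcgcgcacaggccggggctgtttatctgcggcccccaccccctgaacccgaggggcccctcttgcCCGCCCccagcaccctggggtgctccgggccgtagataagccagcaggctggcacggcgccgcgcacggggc
Zbtb21: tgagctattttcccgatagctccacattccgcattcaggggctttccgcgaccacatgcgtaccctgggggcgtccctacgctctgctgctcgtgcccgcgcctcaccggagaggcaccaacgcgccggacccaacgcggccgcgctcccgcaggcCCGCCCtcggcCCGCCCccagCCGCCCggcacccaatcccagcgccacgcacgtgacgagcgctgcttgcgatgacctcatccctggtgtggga
Zbtb3: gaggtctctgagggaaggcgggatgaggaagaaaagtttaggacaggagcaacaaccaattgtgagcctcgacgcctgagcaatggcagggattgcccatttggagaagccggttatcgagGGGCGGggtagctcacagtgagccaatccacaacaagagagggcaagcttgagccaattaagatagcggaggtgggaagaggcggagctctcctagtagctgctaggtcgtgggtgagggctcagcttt
Zbtb42: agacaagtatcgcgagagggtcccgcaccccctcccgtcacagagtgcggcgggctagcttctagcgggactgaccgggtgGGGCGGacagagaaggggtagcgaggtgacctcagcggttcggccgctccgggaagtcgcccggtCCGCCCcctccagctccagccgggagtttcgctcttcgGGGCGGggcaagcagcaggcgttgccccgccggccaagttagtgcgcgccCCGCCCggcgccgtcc
Zbtb49: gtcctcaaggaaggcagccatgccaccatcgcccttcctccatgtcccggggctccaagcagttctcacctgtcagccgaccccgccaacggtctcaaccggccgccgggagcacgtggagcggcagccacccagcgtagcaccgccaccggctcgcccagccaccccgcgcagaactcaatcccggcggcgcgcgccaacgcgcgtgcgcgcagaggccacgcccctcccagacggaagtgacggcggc

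The Bcl6 stretch is chr16:23988853-23989102 (minus strand) and the Zbtb49 stretch is chr5:38220455-38220704 (minus strand). The Zbtb7a stretch is chr10:81136021-81136270 (plus strand), that of Zbtb21 is chr16:97962623-97962872 (minus strand) and that of Zbtb3 is chr19:8802298-8802547 (plus strand). The Zbtb42 stretch is chr12:112678590-112678839 (plus strand). These 250 bases held 1 GC box in Bcl6, 5 in Zbtb7a, 3 in Zbtb21, 1 in Zbtb3, 4 in Zbtb42 and 0 in Zbtb49. They were 58.4% G and C in Bcl6, 78.0% in Zbtb7a and 55.6% in Zbtb3. None of the starts shown was below 55.6%, so they do not show the GC box at low G and C content. Over all genes the GC box went with G and C content, as described further on. Among the starts shown, Zbtb42 is the counterexample, with 4 GC boxes, 72.0% G and C and its nearest peak 10939 bp from the gene. Zbtb49 had the same 72.0% G and C without a GC box, and its nearest peak lay 105945 bp away.

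Arid1b peaks lay at the ends of more than 1 in 2 of these genes. They were mostly of ordinary strength. The highest folds were at Bcl6 and Zbtb7b, and only that of Bcl6 stood clear of the others by its interval. Of the 43 members, 23 had a boundary peak (53.5%, exact binomial 95% interval 37.7 to 68.8), where 22.2% of all protein-coding genes did. Within the wider range of 10 kb, 30 members had a peak (69.8%, 53.9 to 82.8), beside 31.7% of all genes. The family was singled out with these counts known, so they are given as a description with no test. The binomial intervals treat genes as independent, which neighbours that share a peak are not. Without Zbtb8os the counts were 22 and 29 of 42. Over the 23 members the highest fold enrichment of a boundary peak had a median of 3.96 (quartiles 3.55 and 4.68), and over the 4857 genes with such a peak the median was 3.92 (3.44 and 4.54). The fold is the authors' value. It was read as the ChIP pileup over the expected input level at the summit, with 1 added to each.

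Bcl6 carried the strongest peak of the family. This peak, at chr16:23987845-23988968 on mm10, had a fold of 12.5 (exact Poisson 95% interval 10.4 to 14.9) from a pileup of 120 fragments, and it ranked 4 among the 8318 peaks of the list. Its interval did not overlap that of any other boundary peak of the family, the next of which reached 5.89. The expected input level there was the genome background of 8.68, the lowest in the list. The peak ran from 116 bp before the annotated start at position 23988852 to 1007 bp past it, with its summit 59 bp past the start, so it covered the GC box shown in the sequence above.

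The strong Bcl6 peak had weaker peaks on either side. Inside the gene, peaks with folds of 4.34 (3.21 to 5.74), 4.23 (3.05 to 5.73) and 3.61 (2.53 to 5.01) had summits 1285, 1721 and 2149 bp past the start. The last peak lay 935 bp outside the gene, with a fold of 3.06 (2.09 to 4.32). The intervals of these 4 overlapped one another. All 5 fell within 3527 bp, of which 2402 were inside a peak. Bcl6 was the member with the most peaks, and 1.24% of all genes had 5 or more in that range of 10 kb. The second annotated start of Bcl6, at position 23981283, had no peak within 1 kb. The end of the long noncoding RNA gene Gm31527 lay within 1 kb of 3 of the peaks, including the strongest, and signal of the 2 genes cannot be told apart there.

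**Figure D1:**
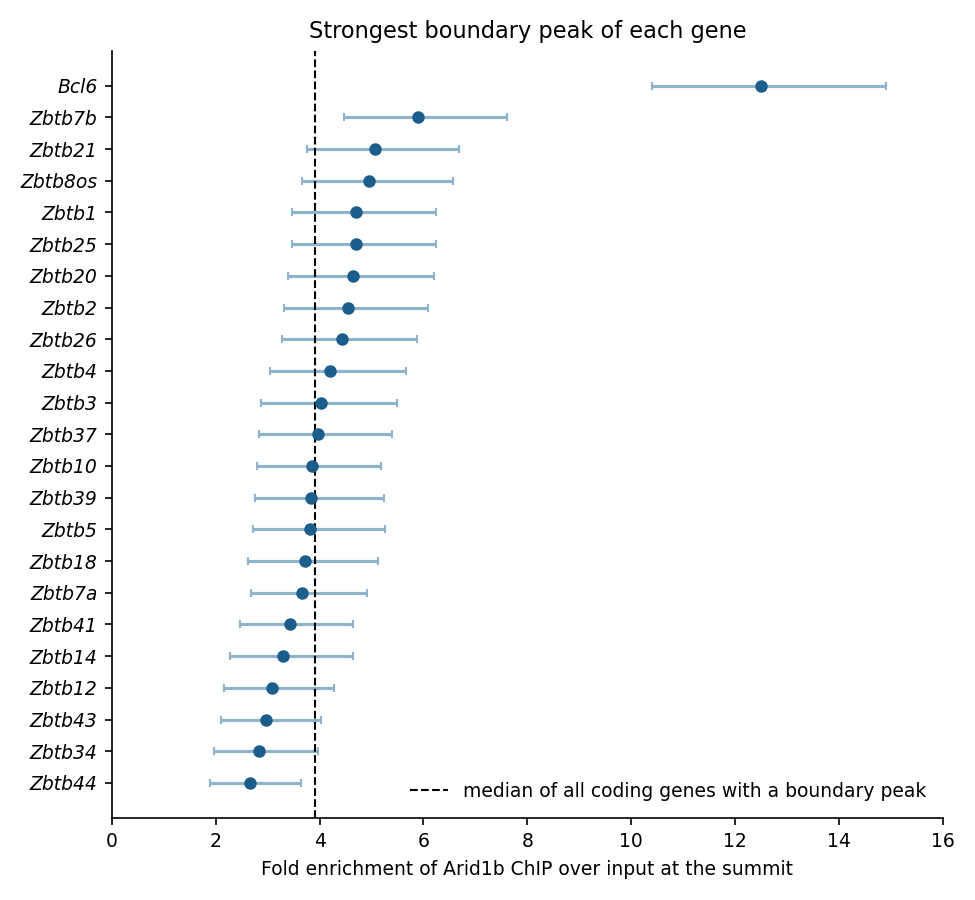
Fold enrichment of Arid1b ChIP over input (x axis, linear ratio) at the strongest boundary peak of each of the 23 genes that had one. Bars are exact Poisson 95% intervals of the summit pileup, which cover counting error only, and the dashed line is the median of 3.92 over all coding genes with a boundary peak. Bcl6 stands at 12.5, and all intervals but those of Bcl6, Zbtb7b and Zbtb44 include the line.

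Zbtb7b had the next highest boundary peak, with an interval that overlapped that of Zbtb21 (3.76 to 6.68). Zbtb7b encodes ThPOK, the factor of the CD4 helper T cell lineage. It had a wide peak of 1556 bp at chr3:89393809-89395364 with a fold of 5.89 (4.47 to 7.61) and a second peak inside the gene with 4.65 (3.40 to 6.20). Its paralogue Zbtb7a encodes LRF, a factor of B cell fate and globin silencing. Zbtb7a had 3 peaks of lower fold, 3.67, 3.01 and 4.19 (3.05 to 5.64), the first of which lay across its start. The interval of the last overlapped those of both Zbtb7b peaks. The third paralogue, Zbtb7c, had none, and its nearest peak was 93671 bp away. Zbtb1, which is needed for lymphoid development, shared a peak with its neighbour Zbtb25, as described further on.

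Bcl6b, the closest paralogue of Bcl6, had no boundary peak. Peaks of 3.30 and 7.59 (6.00 to 9.47) lay 7844 and 9582 bp from it, and both were within 1 kb of the end of Rnasek. Zbtb46, a marker of classical dendritic cells, had 1 peak 4006 bp from the gene, at the end of Tpd52l2, with a fold of 3.41. Zbtb32, a lymphocyte repressor, had 1 peak of 3.47 that lay 1109 bp from the gene and 485 bp from an end of Kmt2b. Zbtb16, which encodes PLZF, had no peak within 149211 bp.

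Zbtb33, which encodes the methyl-CpG-binding factor Kaiso, lies on the X chromosome and had its nearest peak 1104718 bp away. Its relative Zbtb4 had boundary peaks of 4.20 (3.04 to 5.67) and 3.30 (2.30 to 4.60), the stronger at chr11:69765984-69766217. The other relative, Zbtb38, had no peak near its outer ends but 1 of 3.08 (2.29 to 4.05) across a start inside the gene.

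Zbtb17, which encodes the Myc partner Miz1, had its nearest peak 18446 bp away. Zbtb14, which encodes ZF5, had 2 boundary peaks of equal fold, 3.30 each (2.28 to 4.65). Zbtb2 had 2, of 4.54 (3.32 to 6.08) at chr10:4387275-4387495 and of 4.03 (2.88 to 5.49) across its start, and Zbtb5 had 2, of 3.82 (2.71 to 5.25) and 3.72 (2.62 to 5.13). The intervals of the peaks at Zbtb14, Zbtb2 and Zbtb5 overlapped.

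Zbtb20 and Zbtb18 had 2 boundary peaks each. Zbtb20, which acts in liver, hippocampus and growth plate cartilage, is the longest member at 758704 bp. Its peaks of 4.65 (3.40 to 6.20) at chr16:42874795-42875877 and 2.45 (1.72 to 3.38) lay at the outer end, while the start in the promoter table is 371595 bp farther in and had no peak within 1 kb. The long noncoding gene 4932412D23Rik has an end within 1 kb of both peaks, so signal of the 2 genes cannot be told apart there. Zbtb18, which encodes RP58 of cortical development, had peaks of 3.25 and 3.72 on either side of its first start. Its close relative Zbtb42 had none.

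Of the members not yet described, Zbtb21 had the highest fold and the third highest of the family, 5.06 (3.76 to 6.68), at chr16:97962397-97962611, and Zbtb8os followed with 4.96 (3.67 to 6.56) at chr4:129335677-129335917. Zbtb26 had 4.43 (3.27 to 5.88) at chr2:37442906-37443124. Below these came Zbtb3 (4.03), Zbtb37 (3.96), Zbtb10 (3.85), Zbtb39 (3.84), Zbtb41 (3.43), Zbtb12 (3.08), Zbtb43 (2.96), Zbtb34 (2.83) and Zbtb44 (2.65). Of the 32 distinct boundary peaks, 26 had an interval that included 3.72, the median fold of the whole list, so most could not be told apart from an average peak at this depth.

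Fold of at least 5 was reached at the boundary of 3 members, Bcl6, Zbtb7b and Zbtb21, and at 3.29% of all genes. At least 2 boundary peaks were present at 10 members, beside 4.82% of all genes. Over the range of 10 kb, 7 members had 3 or more (4.73% of all genes), namely Bcl6, Zbtb37, Zbtb1, Zbtb4, Zbtb7a, Zbtb26 and Zbtb41. Several of these outlying peaks lay at a neighbour's end: those of Zbtb41 were 282 and 667 bp from Aspm, that of Zbtb1 was 57 bp from Hspa2, and that of Zbtb4 was 407 bp from Slc35g3. The outlying peaks of Zbtb37 (2.96 and 3.30) lay 5002 and 5606 bp from its boundary.

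Boundary peaks were at the start side of these genes. Strand was known for 22 of the 23 members with a boundary peak, and in 22 of 22 the peak lay at the start side and in 0 at the far side. Over all coding genes, 90.4% of 3949 had it at the start side only, 4.41% at the far side only and 5.17% at both. The promoter table held 51 starts for 37 members. Zbtb7c, Zbtb10, Zbtb16, Zbtb40, Zbtb48 and Bcl6b were not matched.

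Measured from annotated starts, the pattern included Zbtb11 and Zbtb38, which the outer ends had missed. Of the 37 members with a listed start, 23 had a peak within 1 kb of one (62.2%, 44.8 to 77.5), beside 23.9% of the 17492 coding genes in the table. These 23 were 21 of the members with a boundary peak, plus Zbtb11 and Zbtb38. Zbtb11, whose protein is linked to mitochondrial gene regulation, had peaks of 4.03 (2.88 to 5.49) and 4.73 (3.5 to 6.26) with summits 202 and 544 bp past its start, while its outer end lay 2386 bp from the nearer one. The long noncoding gene Zbtb11os1 has an end within 1 kb of the same peaks.

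Summits lay mostly just inside the transcribed side, in the members as over all coding genes. For the strongest start peak of each of the 23 members, the summit was downstream of the nearest start in 18 (78.3%), with a median of 137 bp (quartiles 9.50 and 246). Over the 4176 coding genes with a start peak, 71.7% were downstream, with a median of 180 bp (-87 and 293). In 14 of the 23 (60.9%) the summit was within 250 bp of the start, beside 54.2% of all such genes. Zbtb3 had its summit 3 bp past the start and Zbtb7a 16 bp, while Zbtb18 had it 935 bp past and Zbtb7b 666 bp before. Of the 2 Zbtb14 peaks of equal fold, the one with its summit 201 bp before a start was counted. The summit of the other lay 278 bp past a start. Zbtb1 and Zbtb25 shared 1 summit, which counted as upstream for both.

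**Figure D2:**
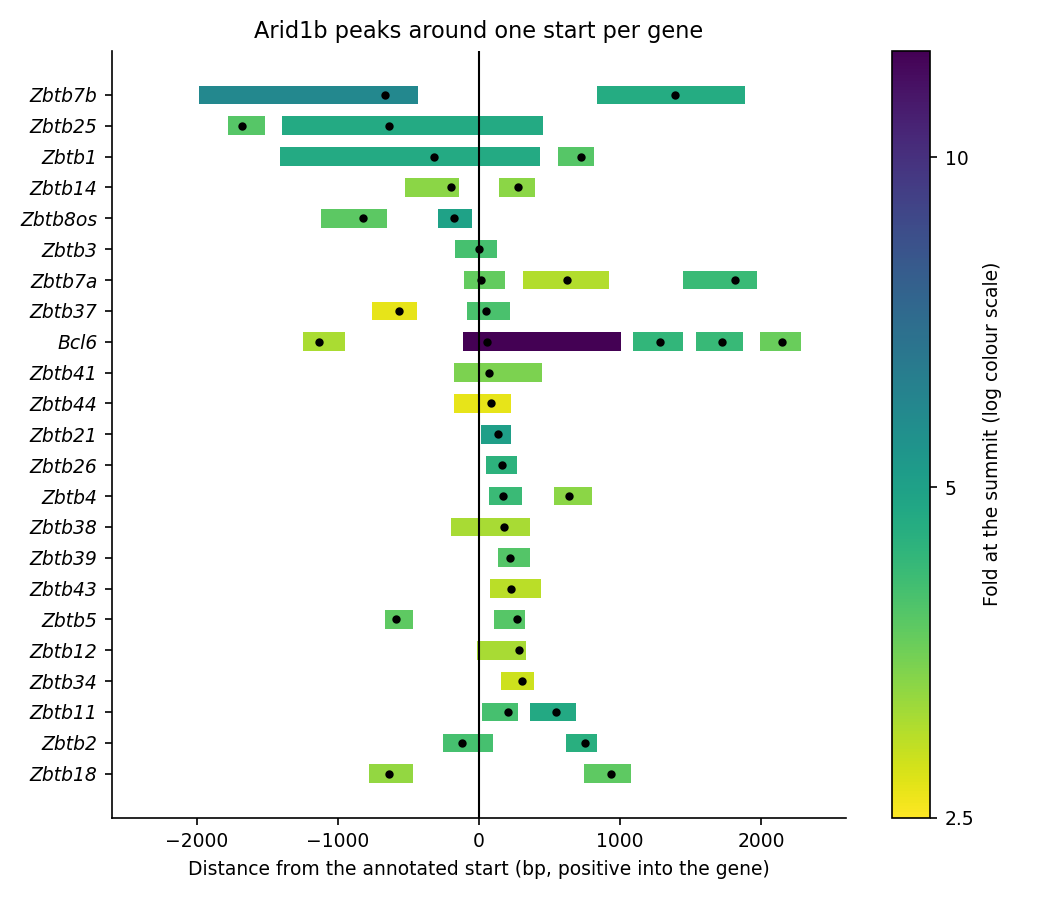
Arid1b peaks (bars, from peak start to peak end) and their summits (points) around 1 annotated start of each of the 23 members with a start peak, in bp with positive values into the gene. Colour gives the fold at the summit on a log colour scale. In 18 of the 23 genes the summit of the strongest peak lies to the right of the start, and the Bcl6 peak of 12.5 is flanked by 4 weaker ones.

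Some of the boundary peaks lay near the end of another coding gene. Of the 32, 6 had another coding boundary within 1 kb, including 1 shared inside the family. This share was not counted over the whole list. With such peaks left out, 19 of 43 members kept a boundary peak, beside 15.9% of all genes. With them, the values were 23 of 43 and 22.2%. The wide peak of 1844 bp at chr12:76369109-76370952, with a fold of 4.70 (3.47 to 6.24), covered listed starts of the head-to-head neighbours Zbtb1 and Zbtb25 and is 1 peak counted for 2 members. The Zbtb26 peak lay near an end of Rabgap1, the 2 of Zbtb8os near Rbbp4, which encodes a histone-binding subunit of several chromatin complexes, and the 2 of Zbtb14 near Gm49894. Zbtb1, Zbtb14, Zbtb26 and Zbtb8os had only boundary peaks of this shared kind. The Zbtb37 and Zbtb5 peaks lay near ends of the noncoding genes Gas5 and 1700055D18Rik.

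Members without a boundary peak lay on several chromosomes. On chromosome 4, 2 of 7 members had one, and on chromosome 7, 0 of 2. Beyond the 23 members with a boundary peak, 7 had a peak only elsewhere within 10 kb: Bcl6b, Zbtb6, Zbtb11, Zbtb22, Zbtb32, Zbtb38 and Zbtb46. The peak near Zbtb6 (4.44) lay 2554 bp from it and 1424 bp from Rc3h2, and the stronger of 2 near Zbtb22 (6.17, 4.84 to 7.76) was at the end of Tapbp. The 13 with no peak within 10 kb (30.2%) were Zbtb7c, Zbtb8a, Zbtb8b, Zbtb9, Zbtb16, Zbtb17, Zbtb24, Zbtb33, Zbtb40, Zbtb42, Zbtb45, Zbtb48 and Zbtb49. Zbtb24, a gene of DNA methylation upkeep, missed the limit at 10607 bp, as did Zbtb48, a telomere-binding factor gene, at 10363 bp. Of the members inside the limit of 10 kb, Bcl6b and Zbtb22 had their nearest peaks farthest off, at 7844 and 6257 bp, and single peaks nearest to the limit were at 9860 bp from Zbtb22 and 9582 bp from Bcl6b. At the limit of 1 kb, Zbtb7a (943 bp) and Zbtb10 (845 bp) were just inside and Zbtb32 (1109 bp) just outside.

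By gene length, a boundary peak was present at 5 of 13 members under 10 kb (15.6% of all such genes), 17 of 25 from 10 to 50 kb (25.1%) and 1 of 5 of 50 kb or more (27.4%). That 1 was Zbtb20. The median length of members was 18295 bp, near the 17169 bp of all genes.

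Starts with a peak were richer in G and C. Over the 300-base windows of the promoter table (250 bases before and 50 after a start, averaged over the starts of a gene), G and C content had a median of 68.3% in the 23 members with a start peak and 57.6% in the 14 without. The same medians over all coding genes were 63.3% and 53.7%. The ratio of observed to expected CpG was 0.852 and 0.840 in the members and 0.818 and 0.408 in all genes. A ratio of 0.6 or more was found in 87.0% of the members with a start peak and 71.4% of those without, beside 83.5% and 35.8% in all genes. Among the members without a start peak the ratio ran from 0.052 at Zbtb46 to 1.15 at Zbtb33.

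The share with a start peak rose with G and C content in the members and in all genes. From 50 to 60% G and C, 5 of 12 had one (41.7%, all genes 20.4%), from 60 to 70%, 8 of 12 (66.7%, 38.5%), and at 70% or more, 10 of 12 (83.3%, 49.2%). The members were taken by symbol, but the family was selected on its share of genes with boundary peaks. Of the 23 members with a start peak, 21 also had a boundary peak, so the higher shares restate that choice. The part of base composition in the family's share was not tested.

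Each of the 23 members with a start peak held a GC box in at least 1 of its windows. Of 6 motifs searched on both strands, GGGCGG was found in these 23 of 23 and in 5 of the 14 members without a start peak. In all coding genes it was found in 76.6% with a start peak, 40.6% without and 49.2% in all. This motif is singled out after the values were seen. Bcl6 had 2 matches in its 300-base window, and Zbtb18 had the most, 12, at its first start. The 5 members with a GC box and no start peak were Zbtb6, Zbtb9, Zbtb17, Zbtb24 and Zbtb42. Genes with several listed starts had more windows to match. With only the first listed start of each gene, 21 of 23 and 5 of 14 held it, beside 72.0% and 38.3% of all coding genes with and without a start peak.

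The GC box went with G and C content. Within 70% or more, 93.8% of all genes with a start peak and 94.2% of those without held the motif, and from 60 to 70% 83.5% and 79.2% did. From 50 to 60% the shares were farther apart, at 62.4% and 41.0%. In the members the classes held 10 of 10 and 1 of 2, 8 of 8 and 1 of 4, and 5 of 5 and 3 of 7. Neither the motif nor the base composition was tested as a cause.

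**Figure D3:**
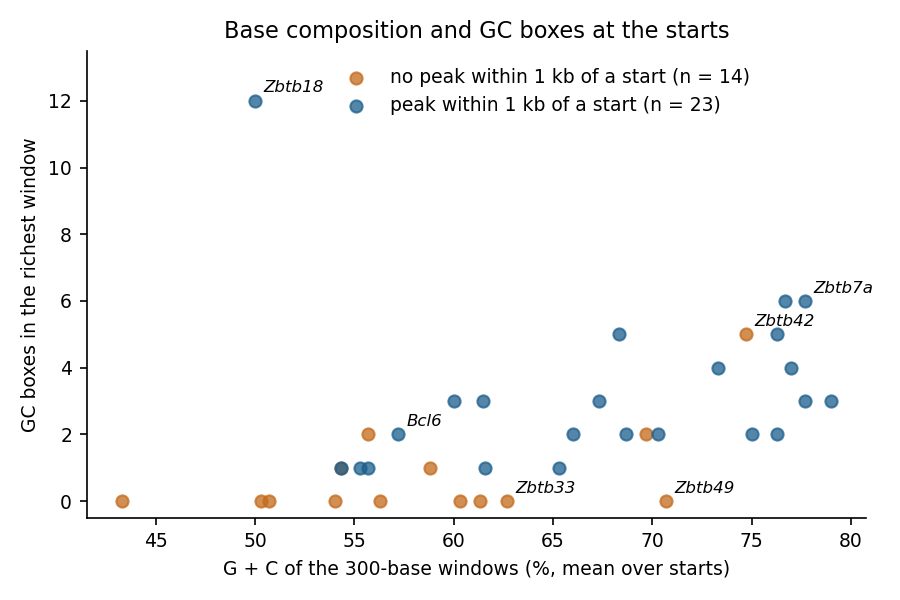
G and C content of the 300-base windows (x axis, %, mean over the starts of a gene) against the number of GC boxes in the richest window (y axis) for the 37 members in the promoter table. Blue points are the 23 with a peak within 1 kb of a start, none at 0 GC boxes, and orange points are the 14 without, of which 9 are at 0.

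The other motifs were sparse or near their share in all genes. The Bcl6 element TTCCTAGAA was found in 0 of 37 members and in 0.440% of all genes, including no match in the Bcl6 windows. The Kaiso element TCCTGCNA was found in Zbtb18 and Zbtb37 (5.53% of all genes). The AP-1 element TGANTCA was found in Zbtb46 alone (8.12%). CCAAT was found in 14 of 37 (42.3%) and TATAAA in 3 (14.8%), namely Zbtb8os, Zbtb18 and Zbtb43. Zbtb3 and Zbtb5, with a start peak, and Zbtb32, without one, each held 4 CCAAT matches in 1 window. A match gives only the presence of these letters in the window.

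Other genes of the BTB and zinc finger classes were set beside the family by lists of genes and by symbol. Among 6 BTB zinc finger genes under other symbols, Zfp131 (4.54, 3.32 to 6.08) and Patz1 (3.92, 2.79 to 5.37) had a boundary peak, Gzf1 had a peak of 2.49 at a start inside the gene, and Hic1, Hic2 and Mynn had no boundary or start peak. Among 16 BTB genes without such fingers, 8 had a boundary peak (50%, 24.7 to 75.3, all coding genes 22.2%). These 8 had a median fold of 3.51: Bach1 (4.34), Rhobtb3 (4.23), Spop (4.13), Abtb2 (3.72), Btbd1 (3.30), Keap1 (3.19), Btbd3 (3.03) and Nacc1 (2.99). By symbol, 102 of 397 Zfp genes (25.7%), 8 of 37 Klhl genes (21.6%), 9 of 22 Kctd genes (40.9%) and 10 of 17 Klf genes (58.8%) had one. Klhl and Kctd proteins are BTB proteins without zinc fingers, and Klf proteins are zinc finger factors without a BTB domain. The share of 53.5% is therefore not set apart from those of the Klf genes and of the BTB genes without fingers. That of the Bcl6 targets, described below, was 53.3%. Differences between these shares were not tested.

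**Figure D4:**
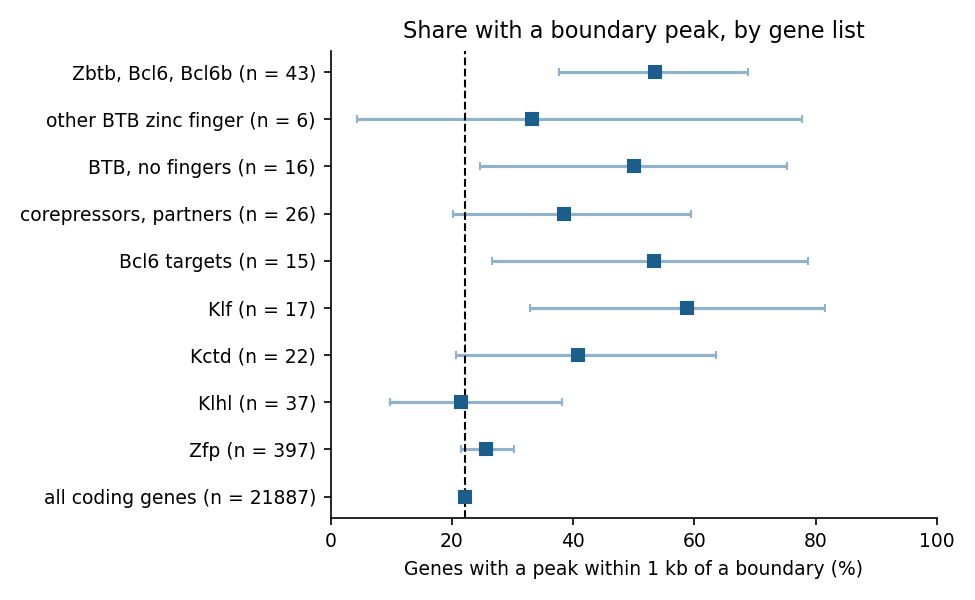
Share of genes with an Arid1b peak within 1 kb of a boundary (x axis, %) in the Zbtb, Bcl6 and Bcl6b genes and in 8 other lists, with exact binomial 95% intervals as bars. The dashed line is the 22.2% of all coding genes. The family stands at 53.5%, near the Klf genes at 58.8%, the Bcl6 targets at 53.3% and the BTB genes without fingers at 50%. The family was selected on this share, so its interval is no test against the line.

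Genes for the corepressors and partners that BTB zinc finger proteins recruit had boundary peaks at 10 of 26 (38.5%, 20.2 to 59.4, all coding genes 22.2%). Within 10 kb, 20 of 26 had a peak (76.9%, all coding genes 31.7%). Of the 20 with a listed start, 11 had a peak within 1 kb of one (55%, all coding genes 23.9%). Hdac4, Hdac7, Kdm2b and Sin3a had such a start peak without a boundary peak. Over the 10 genes with a boundary peak, the median of the highest folds was 4.25, beside 3.92 over all coding genes with one. The deacetylase gene Hdac2 was highest at 6.76 (5.40 to 8.36), followed by the corepressor gene Ctbp2 (5.47, 4.11 to 7.15) and Hdac1 (5.27, 3.94 to 6.91). The nuclear receptor corepressor gene Ncor1 had 3 boundary peaks, with a highest fold of 4.54, and its partner Tbl1xr1 had 4.26. Mta2 (3.81), Max (3.72), the ubiquitin ligase scaffold gene Cul3 (3.41) and Chd4 (2.72) also had one. Bcor, the Bcl6 corepressor gene on the X chromosome, and Hdac3 had peaks only away from their ends, with highest folds of 3.20 and 3.58.

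Of 15 genes known as Bcl6 targets, mostly from B cells, 8 had a boundary peak (53.3%, 26.6 to 78.7, all coding genes 22.2%). Among them were Cdkn1b, an inhibitor of cyclin-dependent kinases (6.20, 4.74 to 7.96), Foxo3 (4.20), Trp53 (4.10), the cyclin gene Ccnd2 (3.92), Socs2 (3.45), Prdm1 (3.30) and Atr (3.17). The lymphocyte genes Irf4, Batf, Cd69 and Cd80, and the checkpoint gene Chek1, had no peak within the wider range of 10 kb. Cdkn1a had no boundary peak but 1 of 5.41 in the gene, within 1 kb of an annotated start. Myc had 2 within 10 kb, up to 4.34. No Bcl6 binding was measured here.

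The depth behind the family's peaks was that of the list. The 32 boundary peaks had a median summit pileup of 38 fragments (range 30 to 120) and a median width of 301 bp (200 to 1844), and the 8318 peaks of the list had medians of 38 fragments and 307 bp. The expected input level was the genome background in 14 of the 32 (43.8%), beside 47.2% of the list, and at most 13.7.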

How the data were processed

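Arid1b ChIP-seq and input chromatin, 1 library each, were analysed from the peak list the authors deposited. Per the submitters' processing notes, the build was mm10 and the tools named are MACS2 2.1.1, Bowtie2 2.2.5, FastQC 0.11.8 and Picard, with no parameters. Read totals and filters were not stated. The deposited list gives for each peak a fold ratio over input at the summit, a -log10 p-value (5.02 or more), a -log10 q-value and a score, which was not used further, all made by the authors' peak caller, per the labels and the column order.

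Summit pileup and expected level were recovered from fold and p-value (largest error 0.000162 in -log10 p), and the exact Poisson 95% interval of the pileup gave that of each fold. It covers counting error only, and fragments need not be independent molecules. The recovery and the windows were tested on simulated data. Peaks were assigned when any part lay within 1 kb of an outer end of the gene, within 10 kb of the gene, or within 1 kb of a start in the RefSeq promoter table (GRCm38.p6). Python 3.11.15, pandas 2.3.3 and scipy 1.17.1 were used. Coordinates are 1-based.

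The members, lists, motifs and alternatives were chosen with earlier results of these data known, and the Klf genes and the count without Zbtb8os were added after the values were seen. The rule named every member: all with a boundary peak by fold, the 10 highest with interval and position, Bcl6 and Bcl6b in full, members with 3 or more peaks, and those without. Of the lists, members with a boundary peak were named, a few of which are not reported here; others were chosen after their values were seen. Alternatives covered q, fold, input level, windows and shared peaks.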

Additional observations from a re-analysis of the deposited data

How the results depend on the processing

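Counts of members moved with the strictness of the peak list and so did the shares of all genes. With -log10 q of at least 10, 10 of 43 members had a boundary peak (10.5% of all genes) and 15 had one within 10 kb (16%), and with fold of at least 5, 3 (3.29%) and 5 (5.21%). Over peaks whose input level was the genome background, 11 had a boundary peak (11.0%) and 18 one within 10 kb (17.4%). The median fold of member boundary peaks was 4.70 with the q limit (all genes 4.57) and 5.89 with the fold limit (5.72), since weaker peaks were left out. Boundary windows of 500 bp and 5 kb gave 20 and 27 members (20.0% and 27.0%), and 20 had a summit within 1 kb (21.5%), without Zbtb7a, Zbtb10 and Zbtb44. Peaks with no other coding boundary left 19 (15.9%), and peaks inside the gene 25 (23.3%). Start windows of 500 bp and 5 kb gave 23 and 24 of 37 (22.8% and 25.6%). No paired analysis was possible because each group has 1 library, and no replicate could be left out.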
